A study of Mus musculus with 12 samples.

Results

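The prohibitins Phb and Phb2 and 8 further genes of inner mitochondrial membrane quality control were followed in the olfactory bulb (OB) of Tg2576 mice. The 8 were Stoml2, Yme1l1, Afg3l2, Spg7, Oma1, Opa1, Immt and Pink1. They were chosen by name, with the probeset of highest mean over the arrays standing for each gene. Of the 10 genes, 9 had a probeset under their symbol, 1 each, among 19505 symbols on the array, and Pink1 was not analysed here.

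Affymetrix Mouse Clariom S arrays, 1 per animal, gave the OB mRNA of 12 female mice in 4 groups of 3. Tg2576 mice carry human APP, the amyloid precursor protein, with the Swedish mutation, driven by the prion promoter, on a C57BL/6/SJL background. WT mice were their littermates without the transgene, and both genotypes were sampled at ages of 2 and 6 months. By their labels the younger mice were 2 months old, whereas one list of the paper makes them a month older. Each mouse gave 1 bulk tissue sample, so that fewer cells of a type and less RNA per cell cannot be told apart.

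Phb and Phb2 assemble in alternation into large rings at the inner mitochondrial membrane, where they act as a scaffold for membrane proteins and lipids and restrain the proteases around them. The proteases are ATP-driven enzymes that open to the matrix (Afg3l2 and Spg7) or to the intermembrane space (Yme1l1), together with the stress-activated peptidase Oma1. Yme1l1 and Oma1 share the substrate Opa1, the dynamin-like GTPase that fuses inner membranes and keeps cristae narrow. Loss of prohibitins is known to speed the cleavage of Opa1 and to cause neurodegeneration in mice. The study examined prohibitin protein in OBs of other Tg2576 and WT mice. The arrays measure the mRNA of the same genes, and thus neither protein amount nor cleavage.

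The values are log2 intensities after normalization between arrays by the authors. They compare mice for 1 gene, and not one gene with another. Array medians lay between 8.24 and 8.27, and correlations between arrays between 0.978 and 0.995. Markers of OB neurons (13 of 14 measured) averaged 11.36 to 11.58 over the 12 arrays. The mean of 18 hybridization control probesets was 12.5 in WT 6-month replicate 2 and 12.1 in replicate 3, and 11.3 to 11.7 elsewhere. Arrays were numbered one group after another in the labels, and their order and the groups cannot be told apart. Genes were tested with limma in 1 fit over all 22206 gene probesets, and a gene was called where its fold change was above 1.3 or below 0.7 and its p before adjustment was under 0.01. Printed p-values of genes are adjusted over all these probesets by the Benjamini-Hochberg method. No probeset reached an adjusted p under 0.05 in Tg2576 against WT mice at either age.

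Phb mRNA was nearly the same in every mouse. In WT mice of 2 months, Phb read 11.55, 11.51 and 11.41 in replicates 1 to 3. In Tg2576 mice of 2 months it read 11.46, 11.42 and 11.67. At 6 months it read 11.47, 11.45 and 11.44 in WT mice and 11.46, 11.51 and 11.44 in Tg2576 mice. The 4 groups overlapped, and the single high value was that of Tg2576 2-month replicate 3. The genotype difference of Phb was 0.03 on the log2 scale at 2 months (SE 0.09, limma adjusted p = 0.991), with a 95% interval from -0.18 to 0.23. At 6 months the genotype difference of Phb was 0.02 (SE 0.09, limma adjusted p = 0.974), with an interval from -0.18 to 0.22. Both intervals lie inside the fold limits of the call.

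Phb2, the partner that Phb needs for assembly, differed more between mice. In WT mice of 2 months Phb2 read 10.96, 10.84 and 11.09, and in Tg2576 mice of that age 11.24, 11.12 and 11.27. The lowest 2-month Tg2576 mouse was thus above the highest 2-month WT mouse. Phb2 was 0.25 higher in Tg2576 mice on the log2 scale (1.19-fold, SE 0.10, 95% interval 0.04 to 0.45), which did not pass the call (limma adjusted p = 0.762). At 6 months Phb2 read 11.18, 11.12 and 11.05 in WT mice and 11.22, 11.18 and 11.19 in Tg2576 mice. These groups overlapped, with a difference of 0.08 (SE 0.10, limma adjusted p = 0.856). The Phb2 difference changed by -0.17 from 2 to 6 months (SE 0.14, limma adjusted p = 0.887), so a change with age was not established. In the means of Phb2, WT mice of 2 months were lowest (10.96), followed by WT mice of 6 months (11.12), Tg2576 mice of 6 months (11.20) and Tg2576 mice of 2 months (11.21).

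**Figure D1:**
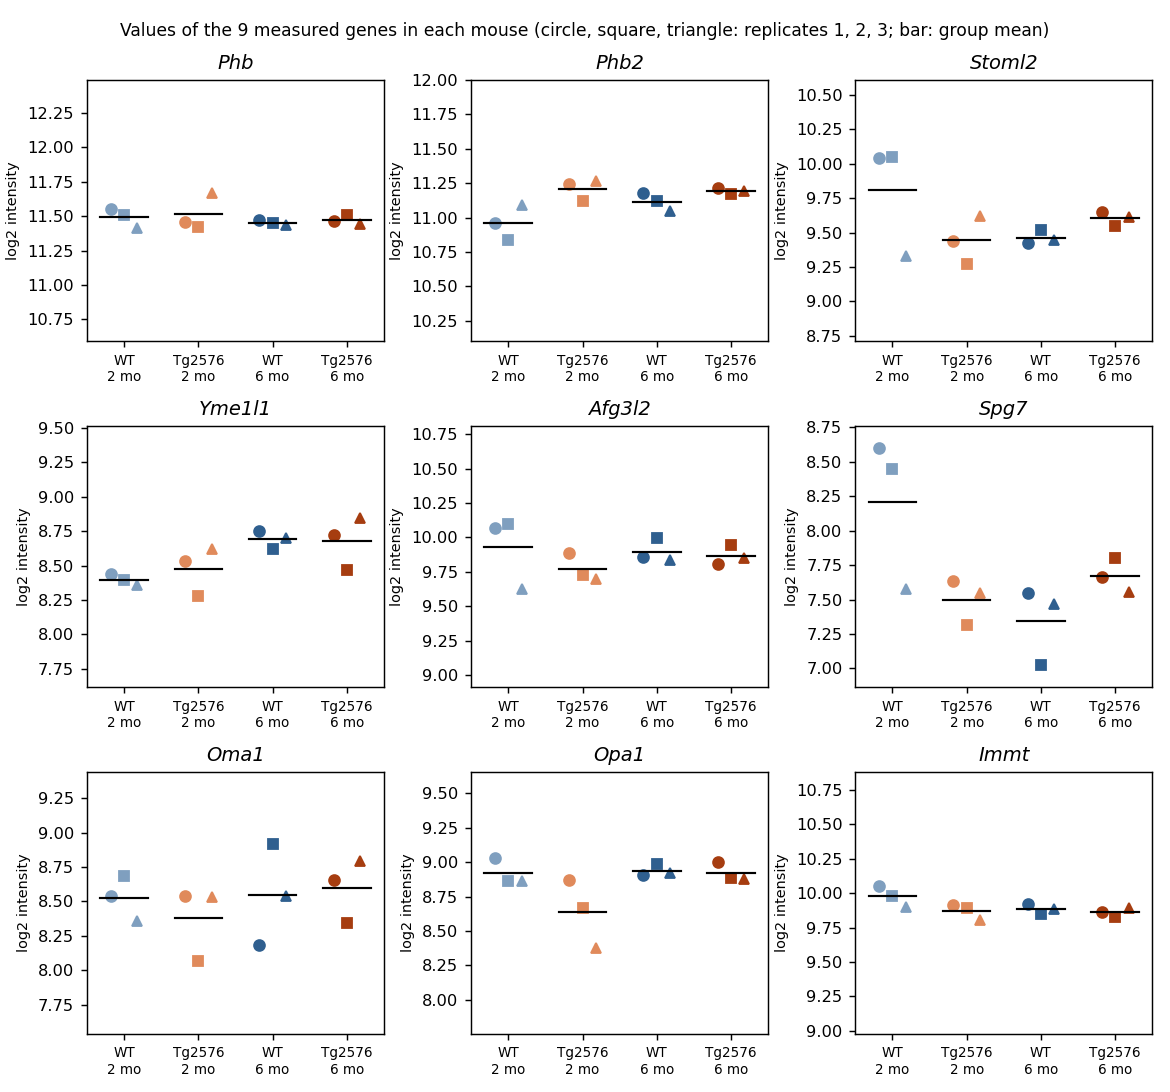
Log2 intensity of the 9 measured genes in each of the 12 mice, by genotype and age in months, with each vertical axis covering the same width on the log2 scale. Symbols are single mice (circle, square and triangle for replicates 1, 2 and 3) and bars are group means of 3 mice. Phb lies flat, Phb2 is lowest in WT mice of 2 months, and Spg7 is high in 2 of the 3 WT mice of 2 months.

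The promoters of both prohibitins and of Spg7, the gene that was called below, are printed to set the letters of these start regions side by side. Each window runs from 250 bases before to 50 bases after the start of the gene in RefSeq (build GRCm38.p6), all 3 on the plus strand, at chr11:95666707-95667006 for Phb, chr6:124712039-124712338 for Phb2 and chr8:123065258-123065557 for Spg7. Capitals mark matches on either strand to 4 motifs, GCGC then any base then TGCGC (nuclear respiratory factor 1, NRF1), CCGGAAG (ETS factors such as GABP), CCAAT and GGGCGG (GC box).
Phb: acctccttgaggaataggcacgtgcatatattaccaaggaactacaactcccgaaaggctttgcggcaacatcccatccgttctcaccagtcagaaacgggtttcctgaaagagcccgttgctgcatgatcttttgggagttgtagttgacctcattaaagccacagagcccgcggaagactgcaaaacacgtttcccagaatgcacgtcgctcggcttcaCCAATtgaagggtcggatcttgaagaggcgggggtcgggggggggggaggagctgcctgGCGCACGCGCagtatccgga
Phb2: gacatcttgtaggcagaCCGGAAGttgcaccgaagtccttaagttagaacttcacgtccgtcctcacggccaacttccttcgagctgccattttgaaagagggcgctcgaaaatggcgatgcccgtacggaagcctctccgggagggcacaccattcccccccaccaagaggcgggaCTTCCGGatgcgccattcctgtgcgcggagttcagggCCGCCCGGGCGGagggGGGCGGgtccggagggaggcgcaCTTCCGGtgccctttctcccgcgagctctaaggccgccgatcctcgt
Spg7: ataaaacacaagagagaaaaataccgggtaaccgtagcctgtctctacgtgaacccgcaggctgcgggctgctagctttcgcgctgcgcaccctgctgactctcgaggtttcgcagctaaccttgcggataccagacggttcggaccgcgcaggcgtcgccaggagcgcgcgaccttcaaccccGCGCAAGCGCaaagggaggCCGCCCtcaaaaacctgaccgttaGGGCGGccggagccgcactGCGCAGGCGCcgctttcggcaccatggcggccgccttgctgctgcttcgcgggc

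The Phb window held 1 NRF1 match and 1 CCAAT match, whereas that of Phb2 held 3 ETS and 3 GC box matches and none of the former. That of Spg7 held 2 NRF1 and 2 GC box matches. Of these matches, 2 GC boxes of Phb2 abut without sharing a base, and no matches overlap. Over the 8 measured genes whose windows were searched (Afg3l2 was left out), the NRF1 letters were found in 5, the ETS letters in 4, CCAAT in 4 and the GC box in 6. Of all 32851 promoters in the table, 4.6% held the NRF1 letters, 8.86% the ETS letters, 37.4% CCAAT and 35.7% the GC box. The letters AAGATGGCG (YY1), also searched on both strands, were in 1.4% of promoters and in 0 of the 8 windows. A match is a match of letters and was not measured as binding here.

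Stoml2 encodes stomatin-like protein 2, which binds prohibitins and cardiolipin and holds Yme1l1 in a larger complex. In WT mice of 2 months it read 10.04, 10.05 and 9.33, and in Tg2576 mice 9.44, 9.27 and 9.62. Replicates 1 and 2 of the WT mice stood above all other mice, while replicate 3 lay within the range of Tg2576 mice. The genotype difference of Stoml2 at 2 months was -0.36 on the log2 scale (SE 0.16, limma adjusted p = 0.777) and was not called. At 6 months Stoml2 read 9.43, 9.52 and 9.44 in WT mice and 9.65, 9.55 and 9.61 in Tg2576 mice. All Tg2576 mice were above all WT mice at this age, by 0.14 in the mean (SE 0.16, limma adjusted p = 0.847), which the shared estimate of spread did not separate from 0.

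Spg7 encodes paraplegin, a subunit of the matrix-facing protease that is mutated in a form of hereditary spastic paraplegia. It was the single gene of the 9 that was called in any comparison. In WT mice of 2 months Spg7 read 8.60, 8.45 and 7.58, and in Tg2576 mice of 2 months 7.63, 7.31 and 7.55. At 6 months it read 7.55, 7.02 and 7.47 in WT mice and 7.67, 7.80 and 7.55 in Tg2576 mice. WT 2-month replicates 1 and 2 stood above the 10 other mice, of which the highest read 7.80, and replicate 3 of that group lay below the highest Tg2576 mouse. Spg7 was lower in 2-month Tg2576 mice by 0.71 on the log2 scale, a fold change of 0.611 with a 95% interval from 0.443 to 0.843 (SE 0.22, limma adjusted p = 0.762). The groups nevertheless overlapped. The interval uses a spread estimated over all groups, whereas the SD of Spg7 was 0.55 in WT and 0.17 in Tg2576 mice of 2 months. The values for Spg7 without single arrays ran from -1.03 (without WT 2-month replicate 3, limma adjusted p = 0.0431) to -0.51 (without WT 2-month replicate 1, limma adjusted p = 1). Replicate 3 was the WT mouse of 2 months nearest the Tg2576 mice, and leaving it out raised the number of probesets called over the whole array too. The call of Spg7 was lost in 4 of 12 fits that left out 1 array, without WT 2-month replicates 1 or 2 or Tg2576 2-month replicates 2 or 3.

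Afg3l2, the catalytic partner that paraplegin needs, read 10.07, 10.10 and 9.62 in WT mice of 2 months and 9.89, 9.73 and 9.70 in Tg2576 mice of that age. Here too WT replicates 1 and 2 were high and replicate 3 low, and the difference of Afg3l2 was -0.16 (SE 0.12, limma adjusted p = 0.895). The 6 mice of 6 months all lay inside the range of the 2-month WT mice. Yme1l1, the protease that opens to the intermembrane space, differed by 0.08 between genotypes at 2 months (SE 0.12, limma adjusted p = 0.968) and by -0.01 at 6 months (SE 0.12, limma adjusted p = 0.982). Oma1, which cleaves Opa1 under stress, varied widely inside groups, from 8.06 to 8.54 in 2-month Tg2576 mice and from 8.18 to 8.91 in 6-month WT mice. Its genotype differences were -0.15 at 2 months (SE 0.18, limma adjusted p = 0.957) and 0.05 at 6 months (SE 0.18, limma adjusted p = 0.961), and the interval of Oma1 at 2 months ran from -0.54 to 0.24.

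Opa1 read 9.03, 8.87 and 8.87 in WT mice of 2 months and 8.87, 8.67 and 8.38 in Tg2576 mice of that age. Tg2576 replicates 2 and 3 were below all other mice, and replicate 1 was level with the WT mice. The Opa1 difference was -0.28 (SE 0.12, 95% interval -0.53 to -0.03, limma adjusted p = 0.774) and was not called. Without Tg2576 2-month replicate 3 it was -0.15 (limma adjusted p = 0.984). At 6 months Opa1 was 8.91 to 8.99 in WT mice and averaged 8.92 in Tg2576 mice, which spanned a wider range, with a difference of -0.02 (SE 0.12, limma adjusted p = 0.977). Immt encodes the core subunit of the MICOS complex, which shapes cristae junctions. Its 12 values lay between 9.81 and 10.05, and its genotype differences were -0.11 at 2 months (SE 0.09, limma adjusted p = 0.902) and -0.02 at 6 months (SE 0.09, limma adjusted p = 0.964).

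**Figure D2:**
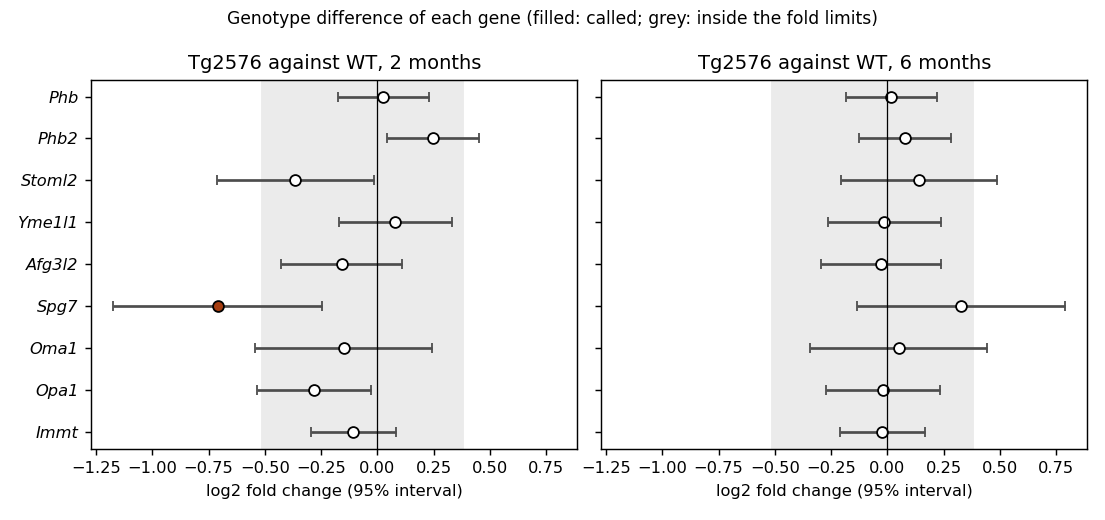
Log2 fold change of each of the 9 genes in Tg2576 against WT mice at 2 and at 6 months (3 mice per group), with the 95% interval from limma as the bar and the range inside the fold limits of the call in grey. The filled point is the called gene, Spg7 at 2 months (-0.71), and at 6 months all 9 intervals include 0.

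At 2 months, 1 of the 9 genes was called (Spg7, lower), against 0.572% of all probesets in either direction and 0.171% lower. At an unadjusted p under 0.05 there were 4 of 9, with Phb2 higher and Stoml2, Spg7 and Opa1 lower, against 6.32% of all probesets. The groups did not overlap for 1 gene (Phb2), against 9.96% of all probesets. The median of the 9 differences was -0.15 on the log2 scale, against 0.01 over all probesets. At 6 months, 0 of the 9 genes were called by limma, against 1.04% of probesets, and 0 had an unadjusted p under 0.05, against 8.61%. The groups did not overlap for Spg7 and Stoml2, both higher in Tg2576 mice, against 14.8% of all probesets. The closest Spg7 values of the 2 genotypes at that age both read 7.55. The median of the 9 differences at 6 months was 0.02, against 0.01 over all probesets.

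Whether the genotype difference changed between ages was tested directly, by the difference at 6 months minus that at 2 months. It was called for 1 of the 9 genes (Spg7), against 0.779% of probesets in either direction and 0.261% with a positive change. The Spg7 difference turned from -0.71 to 0.33, a change of 1.04 (SE 0.31, 95% interval 0.38 to 1.69, limma adjusted p = 0.842). The 6-month difference of Spg7 was not called by itself (SE 0.22, limma adjusted p = 0.706). At an unadjusted p under 0.05 there were 2 of 9, against 5.71% of probesets, the other being Stoml2. For Stoml2 the change was 0.51 (SE 0.23, limma adjusted p = 0.842), and those of the other 7 genes lay between -0.17 and 0.26. The call of Spg7 was lost in 5 of 12 fits that left out 1 array (WT 2-month replicates 1 or 2, WT 6-month replicate 2, or replicate 2 of either Tg2576 group), and its change lay between 0.84 (without WT 2-month replicate 1) and 1.35 (without WT 2-month replicate 3). It was also lost with a covariate for leptomeningeal markers (0.89, limma adjusted p = 0.999) and without WT 6-month replicates 2 and 3 together (0.84, limma adjusted p = 0.982). With the hybridization controls as a covariate it was lost too (0.65, limma adjusted p = 1), and the Spg7 difference at 6 months was then -0.08, so that its sign no longer turned between ages.

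Age alone was compared inside each genotype. In WT mice Spg7 was lower at 6 than at 2 months by 0.86 on the log2 scale, a fold change of 0.550 (SE 0.22, limma adjusted p = 0.242), with no overlap between the ages. This was 1 of 9 genes called in WT mice, against 1.74% of probesets, or 0.293% lower. It shares its 3 WT mice of 2 months with the genotype comparison at that age. The call was lost without WT 2-month replicate 1 (-0.67, limma adjusted p = 0.53) and with the hybridization controls, high in WT 6-month replicates 2 and 3, as a covariate (-0.49, limma adjusted p = 1). At an unadjusted p under 0.05 there were 2 of 9 in WT mice, against 12% of probesets, and for the same 2 genes, Spg7 and Yme1l1, the ages did not overlap, against 13.4%. Yme1l1 read 8.44, 8.39 and 8.36 in WT mice of 2 months and 8.75, 8.62 and 8.70 at 6 months, with no overlap and a difference of 0.30 (SE 0.12, limma adjusted p = 0.362) that was not called. In Tg2576 mice 0 of 9 genes were called by limma between ages, against 0.527% of probesets, and 1 had an unadjusted p under 0.05, against 5.62%. That was Opa1, also the 1 gene whose ages did not overlap in Tg2576 mice, against 14.2%, which was higher at 6 months by 0.28 (SE 0.12, limma adjusted p = 0.873), or by 0.15 without Tg2576 2-month replicate 3 (limma adjusted p = 0.999). Phb differed by -0.04 between ages in WT mice and by -0.05 in Tg2576 mice (SE 0.09 each, limma adjusted p = 0.885 and adjusted p = 0.962).

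**Figure D3:**
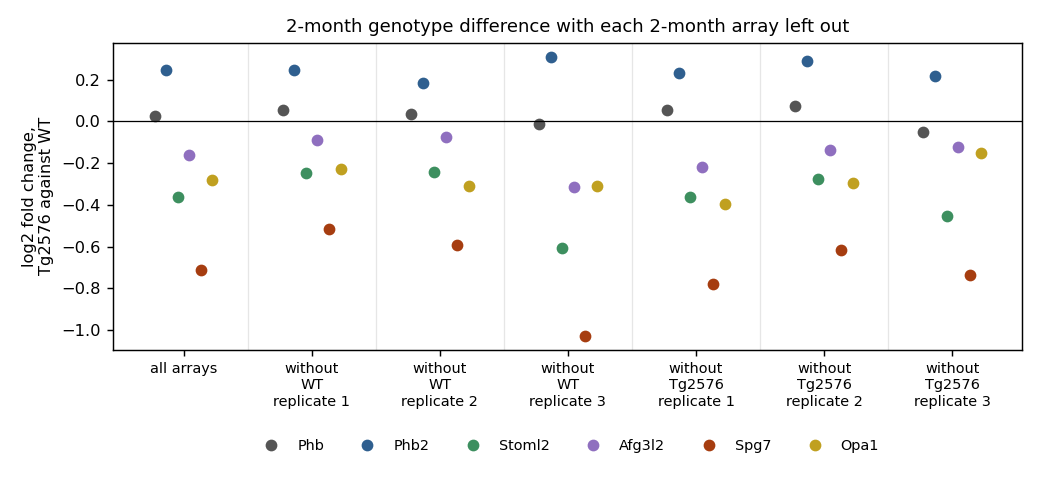
Log2 fold change of 6 of the genes in Tg2576 against WT mice at 2 months, with all arrays and with each 2-month array left out in turn. Phb2 stays above 0 and Spg7, Stoml2, Afg3l2 and Opa1 below 0 in every fit, Phb crosses 0, and the lowest Spg7 value (-1.03) is the fit without WT replicate 3.

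The genes differed in how far mice of 1 group spread. The SD inside groups was 0.08 for Phb and 0.08 for Phb2, and smaller SDs were found for 4.23% and 5.74% of all probesets. For Immt it was 0.05, with 0.621% of probesets below it. Spg7 (0.33), Oma1 (0.27) and Stoml2 (0.23) lay at the other end, with 97.0%, 92.2% and 84.4% of probesets below them. For both Spg7 and Stoml2 the WT mice of 2 months spread most, with an SD of 0.55 for Spg7 and 0.42 for Stoml2. The SD of Spg7 was 0.28 in WT mice of 6 months, and 0.17 and 0.12 in Tg2576 mice of 2 and 6 months.

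Correlations between the genes over the 12 mice were computed for 36 pairs. None passed at an adjusted p of 0.05 (permutation test, two-sided, 100000 resamples), and 8 had an unadjusted p under 0.05. The highest was that of Stoml2 with Spg7, with Pearson's r 0.85 (permutation p = 0.00365, adjusted p = 0.0887) and Spearman's rho 0.59 (permutation p = 0.0464, adjusted p = 0.439). Without WT 2-month replicates 1 and 2, the 2 mice farthest from the median of Stoml2, r was 0.27. Leaving out the extremes of Stoml2 narrows its range, which can lower r by itself. Within ages r was 0.95 at 2 months and 0.29 at 6 months, with 6 mice each. Among the 8 pairs were also negative ones of Phb2, with Immt (-0.71), Spg7 (-0.64), Stoml2 (-0.60) and Afg3l2 (-0.58). Without WT 2-month replicates 1 and 2, also farthest from the median of Phb2, these became -0.27, 0.43, 0.58 and 0.04. For Phb with Phb2, r was 0.08 over the 12 mice (permutation p = 0.806, adjusted p = 0.967) and rho 0.13 (permutation p = 0.699, adjusted p = 0.923). Without the 2 mice farthest from the median of Phb, r was -0.26, and it was 0.16 within 2 months and 0.45 within 6 months. The prohibitin mRNAs thus showed no relation across mice that these data could detect.

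**Figure D4:**
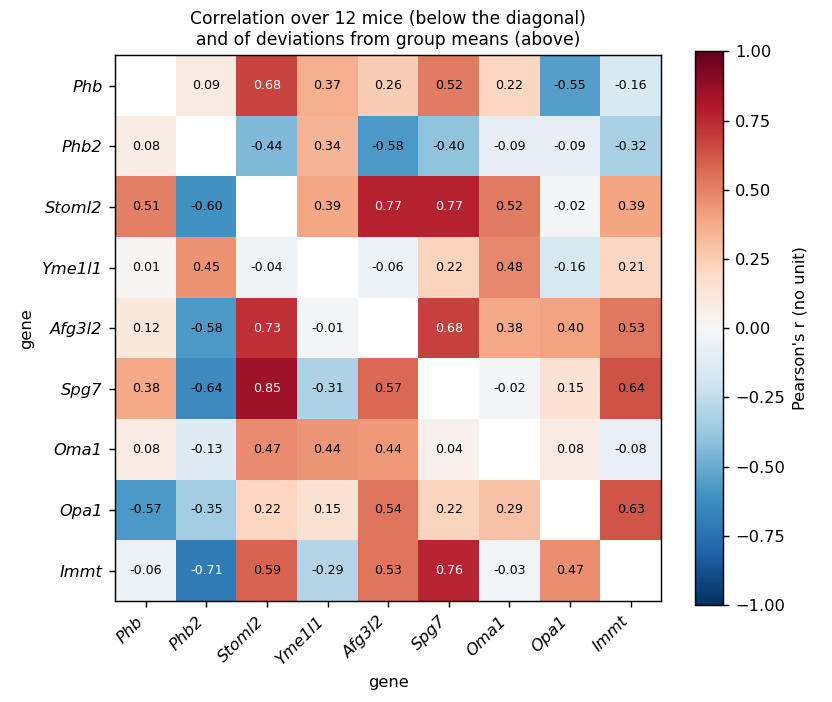
Pearson correlation (no unit) between the 9 genes, over the 12 mice below the diagonal and of the deviations from the group means above it. The highest value below the diagonal is Stoml2 with Spg7 (0.85, and 0.77 above it), followed by Spg7 with Immt (0.76) and Stoml2 with Afg3l2 (0.73). The lowest below the diagonal is Phb2 with Immt (-0.71, and -0.32 above it), and Phb with Phb2 stands at 0.08 and 0.09.

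Among the 10066 other symbols whose probeset mean lay above the median, the 5 most like Phb over the 12 arrays were Stx2 (Pearson's r 0.90), Ugdh (0.89), Elovl1 (0.88), Gtf2h5 (0.86) and Efemp1 (0.85). Those most like Phb2 were Mdp1 (0.93), Ccnq (0.92), Mmachc (0.91), Timm22 (0.90) and Ino80b (0.88). Timm22 encodes the channel of the carrier translocase of the inner membrane. These are descriptions over 12 arrays that share a normalization, and the highest values among many genes.

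The surrounding machinery was described from 8 mitochondrial lists, which hold 138 genes other than the 10, of which 130 were measured. They cover prohibitin partners and relatives, proteases, MICOS and cristae junctions, fusion and fission, and mitophagy. The others cover cardiolipin and lipid transfer, chaperones and stress response, and a reference list for mitochondrial mass. The list of partners and relatives also holds genes whose proteins lie outside mitochondria, such as Flot2 of the plasma membrane. At 2 months 0 of the 130 were called by limma, against 0.572% of all probesets, and 10 had an unadjusted p under 0.05 (7.69%, against 6.32% of all probesets). At 6 months 1 was called, higher (0.769%, against 1.04%), and 7 had an unadjusted p under 0.05 (5.38%, against 8.61%). The medians of the 130 differences were -0.0010 at 2 months and 0.0068 at 6 months. The median difference of single lists ran from -0.08 (mass references) to 0.05 (chaperones and stress response, 24 measured) at 2 months, and from -0.05 (fusion and fission, 15 measured) to 0.10 (cardiolipin and lipid transfer, 14 measured) at 6 months. The mean of the 19 measured mass references, such as matrix and outer membrane proteins, lay between 10.51 and 10.62 in all 12 mice.

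The gene called at 6 months was Flot2, a flotillin of the plasma membrane that shares the SPFH domain of the prohibitins. Flot2 read 8.56, 8.38 and 8.94 in WT mice of 6 months and from 8.96 to 9.11 in Tg2576 mice of that age, with no overlap. Its difference was 0.40 on the log2 scale (SE 0.13, limma adjusted p = 0.475). At 2 months Flot2 read 9.29, 9.20 and 9.15 in WT mice and 8.87, 8.88 and 8.99 in Tg2576 mice, again without overlap but in the other direction (-0.30, SE 0.13, limma adjusted p = 0.774). The change between ages was 0.70 (SE 0.18, limma adjusted p = 0.842), and Flot2 was lower at 6 than at 2 months in WT mice by 0.59 (SE 0.13, limma adjusted p = 0.226). The other gene called between ages in WT mice was Gdap1, a fission factor of the outer membrane, which was higher at 6 months by 0.44 (SE 0.12, limma adjusted p = 0.243). This Gdap1 call was lost without WT 2-month replicate 2 (0.38), without WT 6-month replicate 3 (0.34), without WT 6-month replicates 2 and 3 together (0.33) and with the hybridization controls as a covariate (0.40). In Tg2576 mice Gdap1 differed by 0.36 in the same direction (SE 0.12, limma adjusted p = 0.848), with no overlap between ages. It was not called there with all arrays, but was called without Tg2576 2-month replicate 1 (0.42) or 6-month replicate 3 (0.41). In the 6-month comparison the Flot2 call was lost in 5 of 12 fits without 1 array (each Tg2576 6-month mouse, or WT 6-month replicates 1 or 2), and in the 12 its difference lay between 0.28 (without WT 6-month replicate 2) and 0.55 (without WT 6-month replicate 3), and with the hybridization controls as a covariate (0.29, limma adjusted p = 1). That covariate also ended the Flot2 calls for the change between ages (0.60) and for age in WT mice (-0.49), and the latter was lost without WT 6-month replicate 2 (-0.46).

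**Figure D5:**
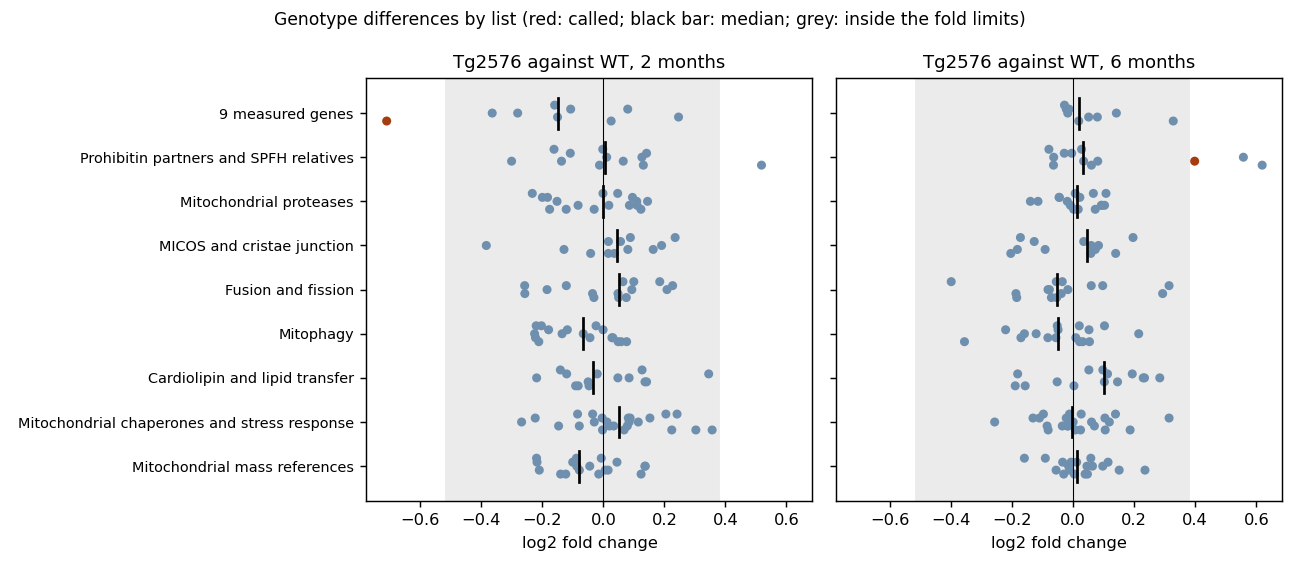
Log2 fold change in Tg2576 against WT mice at 2 and at 6 months for the 9 genes and for the genes of the 8 mitochondrial lists other than the 9. Each point is a gene, red points are called, black bars are list medians and the grey range lies inside the fold limits. The lists centre near 0 at both ages, and the called points are Spg7 at 2 months and Flot2 at 6 months.

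From a list chosen with earlier results of these data known, markers of leptomeningeal cells read higher in Tg2576 than in WT mice at 2 months. None of the markers reached a limma adjusted p under 0.05. Their mean over 14 markers was 8.17 to 8.61 in WT mice and 8.75 to 9.23 in Tg2576 mice of 2 months, 3 of the 14 were called higher by limma (against 0.572% of all probesets) and 8 had an unadjusted p under 0.05 (against 6.32%). At 6 months 1 of the 14 was called higher (against 1.04%) and 6 had an unadjusted p under 0.05 (against 8.61%). Of these 6, Col3a1 was lower in Tg2576 mice (-0.27 on the log2 scale, without overlap), and 9 of the 14 differences were above 0. The mean over the 14 was 8.24 to 8.62 in WT mice and 8.57 to 8.63 in Tg2576 mice of 6 months. With this mean as a covariate, Spg7 at 2 months was -0.47 (limma adjusted p = 1) and no longer called. Phb2, not called without the covariate either, was 0.23 (limma adjusted p = 1). The marker mean did not overlap between the genotypes at 2 months, so this fit cannot separate its part from that of genotype. Oligodendrocyte markers (11 of 12 measured) moved with age in WT mice and with genotype at 6 months. Their mean was 9.28 to 9.54 in WT mice of 2 months, 9.05 to 9.10 in WT mice of 6 months and 9.16 to 9.53 in Tg2576 mice of 6 months. With age in WT mice 3 of the 11 were called lower (against 1.74% in either direction) and 8 had an unadjusted p under 0.05 (against 12%). In Tg2576 against WT mice at 6 months 1 was called higher (against 1.04% in either direction) and 4 had an unadjusted p under 0.05 (against 8.61%). The mean of 8 markers of olfactory sensory neurons was 8.76 to 8.98 in WT mice and 9.08 to 9.34 in Tg2576 mice of 6 months. At 2 months it was 9.01 to 9.29 in WT mice and 8.87 to 9.96 in Tg2576 mice, replicate 3 being highest. That mouse also gave the highest Phb value (11.67) and the lowest Opa1 value (8.38) of all mice. Of the 8 markers, 0 were called by limma between genotypes at 6 months (against 1.04% of all probesets) or with age in WT mice (against 1.74%). An unadjusted p under 0.05 was found for 0 of the 8 in either comparison (against 8.61% and 12%). The part of the oligodendrocyte and sensory neuron markers in the values of Phb, Opa1, Spg7 and Flot2 was not tested.

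Stoml2 overlaps the gene Pigo in the RefSeq annotation, and Yme1l1 overlaps Mastl. Whether probes of these genes read the neighbour was not tested.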

How the data were processed

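OB mRNA of 12 mice was hybridised to Mouse Clariom S arrays after amplification from 1 ng of total RNA. The deposited values are log2 intensities that the authors made by RMA, with no version given in the sources used here. RMA equalises the distribution of all arrays, so that a shift shared by most genes cannot be seen.

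The 22206 gene probesets were tested with limma 3.58.1 in R 4.3.3 on 4 group means, leaving out 6923 control probesets, with Benjamini-Hochberg adjustment over all of them. A call required a fold change above 1.3 or below 0.7 and an unadjusted limma p under 0.01, with no fold limit for the change between ages. Genes were named from the platform annotation, in which 19572 probesets carry 1 symbol and 2634 none. Each array counts as 1 mouse, and the number of arrays limits the precision. The members and the gene lists were chosen with earlier results of these data known. Named were all members, the called genes of the mitochondrial lists, and the 5 genes most like each prohibitin. Those lists are not independent evidence. Promoter sequences came from RefSeq (GRCm38.p6), and Afg3l2 was left out of the search. The fit was tested on simulated data. Alternatives were a fit to the groups compared, other priors, array weights, filters, normalizations, covariates, a replicate block, other call rules and leaving out each array. The human samples were not used here. Correlations of the 36 gene pairs used numpy 2.4.6, with ranks from scipy 1.17.1, and those with other symbols were computed in R.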

Additional observations from a re-analysis of the deposited data

Results flagged for a closer look

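The genotype difference of Spg7 changed by 1.04 on the log2 scale from 2 to 6 months, and the limma test of that change had an unadjusted p under 0.01 (adjusted p = 0.842). It no longer passed that limit with the hybridization controls (0.65) or the leptomeningeal marker mean (0.89) as a covariate. The Spg7 means were 8.21 in WT and 7.498 in Tg2576 mice at 2 months, and 7.35 in WT and 7.67 in Tg2576 mice at 6 months.

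The genotype difference of Flot2 changed by 0.70 on the log2 scale between the same ages by the same test (limma adjusted p = 0.842). With the hybridization controls as a covariate the Flot2 change was 0.60 and no longer passed that limit. All 3 Tg2576 mice were below all 3 WT mice at 2 months and above them at 6 months.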

How the results depend on the processing

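Over the 45 values of the 9 genes (9 genes in 5 comparisons), Flot2 and Gdap1, and the counts of called genes, most alternatives left direction and call as they were, and all of these did so with a trended robust prior, a filter at the 25th percentile, median centring and cyclic loess. The replicate numbers were not taken to pair the mice: deviations of same-numbered mice correlated by 0.18, -0.22 and 0.01 at 2 months and by -0.08, 0.07 and -0.02 at 6 months, and between ages by -0.05, 0.16 and 0.09 in WT mice and 0.02, 0.08 and 0.11 in Tg2576 mice. In Tg2576 mice each number correlated best with its own at the other age, but these correlations were small. In each other pair of groups compared this held for 1 number only, and mice of different ages were different animals. With the replicate block 1 of the 9 genes was called at 2 months, as without it, and the block changed no other call of these genes. The count of probesets called at 2 months was 127, with 51 without WT 2-month replicate 1 and 588 without WT 2-month replicate 3.

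The number of the 9 genes called changed as follows. The count over all probesets also moved between fits and is not set beside each number, so these numbers describe the fits and are not results about the genes. Array weights gave 2 at 2 months and 2 for the change between ages, adding Stoml2 (-0.52 and 0.68). A filter at the median gave 0 at 2 months, 0 for the change between ages and 0 for age in WT mice, since Spg7 itself falls below it. An adjusted p under 0.05 gave 0 in each of those, and an unadjusted p under 0.05 with no fold limit gave 4, 2 and 2, and 1 for age in Tg2576 mice. Without WT 6-month replicates 2 and 3 it was 0 for the change between ages (Spg7 0.84) and 0 for age in WT mice (Spg7 -0.66), where the remaining WT mouse was given the spread of the other groups. With the hybridization controls as a covariate both were 0 (Spg7 0.65 and -0.49). With the leptomeningeal mean as a covariate it was 0 at 2 months and 0 for the change between ages (Spg7 0.89). The cause of these changes was not tested. Leaving out each array gave 0 to 2 called genes at 2 months, for the change between ages and for age in WT mice, 0 at 6 months, and 0 to 1 for age in Tg2576 mice. Without WT 2-month replicate 3, Stoml2 was called at 2 months (-0.60), for the change between ages (0.75) and for age in WT mice (-0.59). Without WT 2-month replicate 1, the age difference of Spg7 in WT mice was no longer called (-0.67). Without Tg2576 2-month replicate 1, Opa1 was called for age in Tg2576 mice (0.40).

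Flot2 at 6 months was also not called in a fit to those groups alone (0.40), with array weights (0.36) and with the leptomeningeal mean as a covariate (0.35), and with the hybridization controls as a covariate Flot2 was not called for the change between ages (0.60) or for age in WT mice (-0.49). Flot2 for age in WT mice was not called without WT 6-month replicate 2 (-0.46). Gdap1 for age in WT mice was not called without WT 2-month replicate 2 (0.38) or WT 6-month replicate 3 (0.34), without WT 6-month replicates 2 and 3 together (0.33), or with the hybridization controls as a covariate (0.40).

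Signs turned only for differences that were not called. With array weights, the values were Phb -0.0041 at 2 months, Opa1 0.0040 at 6 months, Phb 0.017 for the change between ages, Oma1 -0.12 for age in WT mice, and Phb2 0.00093 for age in Tg2576 mice. Without WT 6-month replicates 2 and 3, the values were Phb -0.0011, Afg3l2 0.0099, Opa1 0.013 and Gdap1 0.076 at 6 months, Gdap1 0.028 for the change between ages, and Oma1 -0.35 and Opa1 -0.013 for age in WT mice. With the hybridization controls as a covariate, the values were Phb -0.055, Spg7 -0.081, Opa1 0.042 and Gdap1 0.0066 at 6 months, and Phb 0.027, Oma1 -0.19 and Opa1 -0.037 for age in WT mice. With the leptomeningeal mean as a covariate, the values were Phb -0.031 and Afg3l2 0.0063 at 2 months, Phb -0.0039, Afg3l2 0.035, Oma1 -0.0064, Opa1 0.072 and Immt 0.016 at 6 months, Phb 0.027 for the change between ages, and Afg3l2 -0.0093 for age in Tg2576 mice.

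Leaving out each array, ranges that crossed 0 at 2 months were Phb -0.050 to 0.072, Oma1 -0.23 to 0.0068 and Gdap1 -0.017 to 0.11. At 6 months they were Phb -0.00011 to 0.033, Yme1l1 -0.099 to 0.093, Afg3l2 -0.068 to 0.021, Oma1 -0.13 to 0.23, Opa1 -0.058 to 0.0058 and Gdap1 -0.097 to 0.065. For the change between ages they were Phb -0.054 to 0.068, Yme1l1 -0.19 to 0.013 and Gdap1 -0.15 to 0.017. For age in WT mice they were Afg3l2 -0.19 to 0.051, Oma1 -0.17 to 0.20 and Opa1 -0.0097 to 0.073. For age in Tg2576 mice they were Phb -0.094 to 0.028, Phb2 -0.059 to 0.013 and Immt -0.042 to 0.012. Each gene had 1 probeset, so that no other probeset could be tried, and a fit to only 2 groups cannot give the change between ages.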
